A study of Mus musculus with 15 samples.

Results

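The glucocorticoid receptor gene Nr3c1 and 9 genes that the activated receptor is known to raise directly (Fkbp5, Tsc22d3, Sgk1, Hsd11b1, Dusp1, Pdk4, Mt1, Mt2 and Zbtb16) were followed through adipogenesis of mouse embryonic fibroblasts (MEFs). The 10 genes were taken by name from 46603 gene identifiers, and all 10 passed the filter on low counts that left 15997 genes for testing. RNA-Seq read counts were compared between 5 groups of 3 samples each, with replicates numbered 1, 3 and 4. All were wild-type BALB/c MEFs from 10.5 day old embryos, grown in DMEM with 10% FBS.

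MEFD0 was the starting culture. MEFD3plu cells spent 3 days in growth medium to which dexamethasone (1 μM), rosiglitazone (10 μM), insulin (10 μg/mL) and the methylxanthine IBMX (0.5 mM) had been added. MEFD5plu cells were then kept for 2 more days in growth medium without these agents, and MEFD3min and MEFD5min were the untreated cultures of the same days. Dexamethasone is a synthetic glucocorticoid, IBMX raises cyclic AMP, and rosiglitazone activates the adipocyte regulator PPARγ. The 4 agents were added and removed together, so the response to dexamethasone cannot be told apart from the response to the others.

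Glucocorticoids cross the plasma membrane and bind a receptor held in the cytoplasm by Hsp90 and its cochaperones. The bound receptor moves to the nucleus, binds glucocorticoid response elements as a dimer and recruits coactivators, and it also restrains inflammatory genes driven by AP-1 and NF-κB. In preadipocytes dexamethasone is a classical part of the adipogenic cocktail, given early and then withdrawn.

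At day 3, 9 of the 10 genes were higher in treated than in untreated cells and Nr3c1 was lower. The largest differences were those of Zbtb16, Pdk4, Hsd11b1 and Fkbp5. At day 5, 2 days after the agents were removed, 8 genes were higher and Dusp1 and Mt1 did not pass the test. The genes separated by their treated level at day 5 as a share of that at day 3. Hsd11b1 and Pdk4 stood at 92.2% and 111% of the day 3 level without passing a test between the days. Sgk1, Dusp1, Mt1 and Mt2 stood at 53.6% to 62.4% of it, Tsc22d3 at 36.4%, and Fkbp5 and Zbtb16 at 21.8% and 20.2%. These shares do not rank what was left of the treatment effect, since the untreated level of several genes moved as well. Over untreated cells of day 5, Fkbp5 was still 2.42-fold and Zbtb16 at least 31.8-fold higher, while Dusp1 and Mt1 were not called.

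Of all genes tested, 28.0% were called higher and 28.0% lower at day 3 (MEFD3plu/MEFD3min), and 26.3% higher and 24.2% lower at day 5 (MEFD5plu/MEFD5min). A gene was called where the quasi-likelihood test of edgeR gave a p under 0.05 once adjusted over all genes by Benjamini-Hochberg. At day 3 the 3 treated samples lay wholly apart from the 3 untreated ones for all 10 genes, against 56.8% of all genes, and at day 5 for 8 of 10, against 62.1%. Library totals ranged from 24030558 to 37281126 counts. Levels are CPM, the count scaled to library size with TMM factors, as mean ± SD with n = 3. The study's methods speak of independent experiments in general, without tying this to the sequenced samples, and the labels do not say that replicates came from separate cultures. The p-values therefore measure the spread between these samples, which may be technical.

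Markers of fat cells and fibroblasts differed between the groups. The summed level of 7 adipocyte markers was 42.2 to 65.2 CPM in the untreated and day 0 samples, 7441 to 9166 CPM in MEFD3plu and 9670 to 11429 CPM in MEFD5plu. The summed level of 8 fibroblast markers was 18076 to 25640 CPM in MEFD3min and 8250 to 11965 CPM in the other groups. Of 6 macrophage markers, Adgre1 was at 0 in every sample, and the list summed to at most 6.97 CPM. The part of these shifts in the results was not tested, and in bulk samples fewer cells of a type and less RNA per cell cannot be told apart. With total counts in place of TMM scaling, the median gene moved by -0.16 on the log2 scale at day 5 and by 0.02 at day 3. The higher share of the genes called at day 5 was then 37%, against 52.1% with TMM scaling.

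Promoter windows of RefSeq transcripts (GRCm38.p6 reference sequence, 250 bases before to 50 after the annotated start) were matched for 8 of the 10 members, not for Nr3c1 and Zbtb16. They were searched on both strands for TGTTCT, the hexamer that forms each arm of a glucocorticoid response element, and for the core ACANNNTGT, which overlaps 2 such arms when they face each other. They were also searched for the metal response element core (TGCGCNC or TGCACNC) and for the cyclic AMP response element TGACGTCA. Of 32851 windows of all genes, 18.97% held the hexamer, 6.85% the glucocorticoid core, 25.7% a metal core and 1.79% the cyclic AMP element.

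Sgk1 had 6 annotated starts, and the window of the start with most matches held 3 hexamers. In this window 2 of them faced each other with 3 bases between, the textbook form of the element, which was found in 3 of 32851 windows (0.00913%). It is shown because no other member had this arrangement. The 250 bases before that start lie at chr10:21993640-21993889 on the plus strand of GRCm38, with the hexamers in capitals.
Sgk1: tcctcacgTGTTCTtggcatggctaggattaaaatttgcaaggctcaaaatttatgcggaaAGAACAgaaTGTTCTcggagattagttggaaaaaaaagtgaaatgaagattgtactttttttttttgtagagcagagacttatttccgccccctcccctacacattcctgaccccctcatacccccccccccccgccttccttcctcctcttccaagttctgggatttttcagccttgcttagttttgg

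Tsc22d3 held a single hexamer, 185 bases before the farthest upstream of its 3 annotated starts. Its window is shown as the only other member window besides those of Sgk1 with that hexamer (chrX:140600523-140600772, minus strand, hexamer in capitals).
Tsc22d3: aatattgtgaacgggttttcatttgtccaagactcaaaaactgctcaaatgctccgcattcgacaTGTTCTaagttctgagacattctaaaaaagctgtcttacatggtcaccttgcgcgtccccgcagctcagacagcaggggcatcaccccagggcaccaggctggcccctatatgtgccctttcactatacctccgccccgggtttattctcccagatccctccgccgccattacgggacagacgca

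Dusp1 held a cyclic AMP element and neither glucocorticoid motif in its window, and Mt1 held a glucocorticoid core beside metal cores. Both are shown because the medium held a glucocorticoid and an agent that raises cyclic AMP. The Dusp1 stretch is chr17:26508473-26508722 on the minus strand, with the cyclic AMP element in capitals. The Mt1 stretch is chr8:94178839-94179088 on the plus strand, with the glucocorticoid core and, after it, a metal core in capitals.
Dusp1: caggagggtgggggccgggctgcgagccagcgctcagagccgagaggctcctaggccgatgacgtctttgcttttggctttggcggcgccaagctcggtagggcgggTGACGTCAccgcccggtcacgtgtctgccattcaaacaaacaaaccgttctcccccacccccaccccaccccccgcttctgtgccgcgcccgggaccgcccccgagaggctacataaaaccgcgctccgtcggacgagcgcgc
Mt1: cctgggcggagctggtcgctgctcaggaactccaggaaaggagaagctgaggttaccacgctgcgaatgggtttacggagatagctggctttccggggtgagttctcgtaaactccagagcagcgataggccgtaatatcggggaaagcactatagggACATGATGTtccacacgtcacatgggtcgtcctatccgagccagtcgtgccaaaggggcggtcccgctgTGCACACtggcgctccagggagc

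The whole Mt1 window held 3 metal cores, as in 1.97% of windows, and that of Mt2 held 4, as in 0.518%. The windows of Fkbp5, Pdk4, Hsd11b1 and Mt2 held neither glucocorticoid motif. A match is a description of letters, and its absence says only that these letters are not in this window.

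Nr3c1 (ENSMUSG00000024431, chr18:39410545-39519421, minus strand, 13 exon blocks) encodes the receptor itself. Its level was 203, 190.2 and 190.5 CPM in MEFD0, 265, 246 and 279 CPM in MEFD3min, and 134, 137 and 154 CPM in MEFD3plu. MEFD5min stood at 190.3, 189.8 and 200.5 CPM and MEFD5plu 226, 240.5 and 242 CPM. The treated samples were the lowest of the series at day 3 and stood above their untreated controls at day 5, with no overlap on either day. At day 3 Nr3c1 was 1.86-fold lower in treated cells (log2 fold change -0.90, SE 0.08, edgeR adjusted p = 2.52e-08). At day 5 it was 1.22-fold higher (log2 fold change 0.29, SE 0.08, edgeR adjusted p = 0.00443). With total counts in place of TMM scaling the day 5 difference was 0.12 on the log2 scale and did not pass the test (edgeR adjusted p = 0.129). The treatment effect differed between the days by -1.18 on the log2 scale (day 3 minus day 5, SE 0.11, edgeR adjusted p = 1.63e-07). Treated cells gained 1.67-fold from day 3 to day 5 (log2 fold change 0.74, SE 0.08, edgeR adjusted p = 3.33e-07), which left them above MEFD0 by 0.28 on the log2 scale (SE 0.08, edgeR adjusted p = 0.00365). With total counts alone that difference from MEFD0 was 0.10 (edgeR adjusted p = 0.218).

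**Figure D1:**
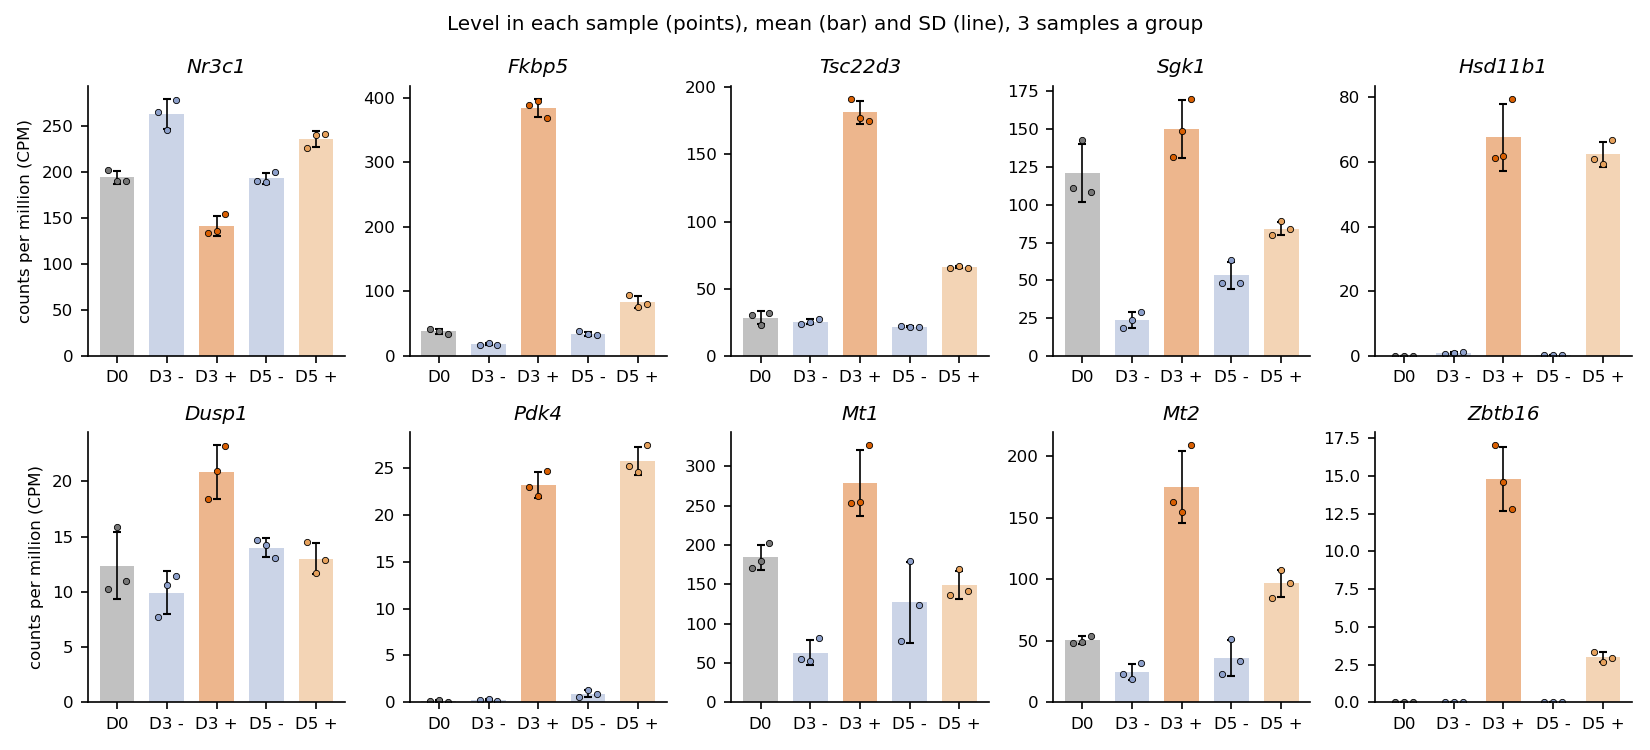
Level of each of the 10 genes in CPM after TMM scaling (linear axes from 0) in MEFD0 (D0), MEFD3min (D3 -), MEFD3plu (D3 +), MEFD5min (D5 -) and MEFD5plu (D5 +), with 3 sample points, the mean as a bar and the SD as a line for each group. Nr3c1 is lowest in D3 + at 142 CPM, Fkbp5 peaks there at 384 CPM, and Hsd11b1 and Pdk4 stay high in D5 + at 62.3 and 25.7 CPM.

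Fkbp5 (ENSMUSG00000024222, chr17:28399094-28517527, minus strand) encodes an Hsp90 cochaperone that lowers the receptor's affinity for hormone and so closes a feedback loop. Its level was 17.5, 19.8 and 16.7 CPM in MEFD3min against 388, 395 and 368 CPM in MEFD3plu. Day 5 levels were 37.9, 33.3 and 32.3 CPM in untreated and 94.0, 76.1 and 80.7 CPM in treated cells. Every treated sample was above every untreated one, and the spread within groups was small against the gap. The difference was 21.3-fold at day 3 (log2 fold change 4.41, SE 0.11, edgeR adjusted p = 8.48e-15) and 2.42-fold at day 5 (log2 fold change 1.28, SE 0.10, edgeR adjusted p = 2.14e-08). The effect was larger at day 3 by 3.13 on the log2 scale (SE 0.14, edgeR adjusted p = 5.62e-11), the widest gap between the days among the 9 members that could be tested. From day 3 to day 5 the level in treated cells fell by 2.20 on the log2 scale (SE 0.10, edgeR adjusted p = 1.75e-11). It remained above the 41.6, 38.6 and 34.3 CPM of MEFD0 by 1.13 on the log2 scale (SE 0.10, edgeR adjusted p = 3.22e-08).

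Tsc22d3 (ENSMUSG00000031431, chrX:140539528-140600659, minus strand) encodes GILZ, a leucine zipper protein that mediates anti-inflammatory actions of glucocorticoids. Untreated samples lay between 21.3 and 27.6 CPM at days 3 and 5. Treated samples were at 191, 177 and 175 CPM at day 3 and at 65.3, 66.8 and 65.7 CPM at day 5. The treated samples stood clear of the untreated ones on both days. The difference was 7.09-fold at day 3 (log2 fold change 2.83, SE 0.10, edgeR adjusted p = 5.93e-13) and 3.01-fold at day 5 (log2 fold change 1.59, SE 0.10, edgeR adjusted p = 1.52e-09). The effect was larger at day 3 by 1.24 on the log2 scale (SE 0.14, edgeR adjusted p = 1.94e-06). At day 5 treated cells were above the 30.2, 23.2 and 32.0 CPM of MEFD0 by 1.21 (SE 0.10, edgeR adjusted p = 1.31e-08).

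Dusp1 (ENSMUSG00000024190, chr17:26505590-26562128, minus strand) encodes a phosphatase that switches off p38 and JNK. It was at 7.74, 10.7 and 11.4 CPM in MEFD3min and at 18.4, 21 and 23.2 CPM in MEFD3plu. Its day 5 levels were 14.7, 14.2 and 13.1 CPM in untreated and 14.5, 11.7 and 12.9 CPM in treated cells. The groups were apart at day 3 and overlapped at day 5. The difference at day 3 was 2.1-fold (log2 fold change 1.07, SE 0.17, edgeR adjusted p = 3.01e-05), the smallest of the 9 increases. At day 5 the log2 fold change was -0.10 (SE 0.16, edgeR adjusted p = 0.631), so any remaining difference was within the spread of the samples. The effects of the days differed by 1.17 on the log2 scale (SE 0.23, edgeR adjusted p = 0.000516).

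Sgk1 (ENSMUSG00000019970, chr10:21882184-21999903, plus strand) encodes a kinase that regulates ion transport and cell survival. In MEFD0 it stood at 111, 143 and 109 CPM, and in untreated MEFD3min at 18.5, 23.7 and 28.9 CPM. In MEFD3plu it was at 131, 149 and 170.1 CPM. The treated samples of day 3 therefore lay near the starting culture, and it was the untreated ones that were low. Sgk1 fell by 2.35 on the log2 scale in untreated culture by day 3 (SE 0.16, edgeR adjusted p = 1.15e-09). Against that control the treated level was 6.33-fold higher (log2 fold change 2.66, SE 0.16, edgeR adjusted p = 3.00e-10). Against MEFD0 it was 0.31 higher on the log2 scale, with overlapping groups, and did not pass the test (SE 0.15, edgeR adjusted p = 0.0803). It passed with the replicate block (0.31, edgeR adjusted p = 0.0237), with only the samples compared (0.28, edgeR adjusted p = 0.0444) and with no filter (0.31, edgeR adjusted p = 0.00993). It also passed without any 1 of 3 samples, namely MEFD0 replicate 3 (0.45, edgeR adjusted p = 0.0240), MEFD3plu replicate 1 (0.40, edgeR adjusted p = 0.0472) and MEFD3min replicate 4 (0.31, edgeR adjusted p = 0.0434).

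At day 5 Sgk1 was at 48.0, 63.5 and 48.2 CPM in untreated and at 79.9, 89.0 and 83.9 CPM in treated cells. All treated samples were higher, and the difference had narrowed to 1.58-fold (log2 fold change 0.66, SE 0.15, edgeR adjusted p = 0.00159). The effects differed between the days by 2.0 on the log2 scale (SE 0.22, edgeR adjusted p = 1.22e-06). Treated cells of day 5 were below MEFD0 (log2 fold change -0.52, SE 0.15, edgeR adjusted p = 0.00571). Mt1 was also below MEFD0 in every treated sample of day 5 (log2 fold change -0.31, SE 0.22, edgeR adjusted p = 0.238), and passed only with the samples compared alone (-0.33, edgeR adjusted p = 0.00462) or with no filter (-0.33, edgeR adjusted p = 0.00381).

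Hsd11b1 (ENSMUSG00000016194, chr1:193221634-193264075, minus strand) encodes the enzyme that regenerates active glucocorticoid from its inert form inside the cell, and it is a known gene of mature fat cells. In MEFD0 it had 0, 0 and 2 counts. It was at 0.53, 0.79 and 1.28 CPM in MEFD3min and at 61.2, 62.0 and 79.5 CPM in MEFD3plu. The day 5 samples held 0.34, 0.23 and 0.41 CPM in untreated and 60.8, 59.4 and 66.8 CPM in treated cells. The treated samples of both days covered overlapping ranges, far above every untreated sample. The difference was 78.6-fold at day 3 (log2 fold change 6.30, SE 0.21, edgeR adjusted p = 1.78e-13) and 184-fold at day 5 (log2 fold change 7.53, SE 0.24, edgeR adjusted p = 1.55e-13). Between MEFD5plu and MEFD3plu the log2 fold change was -0.12 (SE 0.15, edgeR adjusted p = 0.499).

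The larger ratio of Hsd11b1 at day 5 (interaction -1.23, SE 0.39, edgeR adjusted p = 0.0147) went with a drop in the untreated cells, by 1.35 on the log2 scale from MEFD3min to MEFD5min (SE 0.36, edgeR adjusted p = 0.00561). Without MEFD3min replicate 4 the interaction was -0.87 and did not pass the test (edgeR adjusted p = 0.0739). Over MEFD0, the counts summed over the group gave a ratio of 3501 for MEFD3plu (exact 95% interval 969 to 28914) and of 43.8 for MEFD3min (11.8 to 368). These intervals cover counting error only. Both ratios rest on the 2 counts of MEFD0 replicate 4. Without that library MEFD0 is at 0, and against the floor of 3 counts per library the level was at least 741-fold higher in MEFD3plu and at least 9.49-fold higher in MEFD3min.

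Pdk4 (ENSMUSG00000019577, chr6:5483351-5496309, minus strand) encodes a kinase that inhibits pyruvate dehydrogenase and so spares glucose for fat oxidation. It was at 0.17, 0.24 and 0.084 CPM in MEFD0, at 0.22, 0.36 and 0.20 CPM in MEFD3min and at 22.9, 21.9 and 24.6 CPM in MEFD3plu. By day 5 Pdk4 was at 0.53, 1.32 and 0.95 CPM in untreated and at 25.2, 24.5 and 27.4 CPM in treated cells. Treated samples of both days shared 1 range, and all others were far below. The difference was 85.7-fold at day 3 (log2 fold change 6.42, SE 0.25, edgeR adjusted p = 1.13e-12) and 28.3-fold at day 5 (log2 fold change 4.82, SE 0.21, edgeR adjusted p = 8.35e-12). The effect was smaller at day 5 by 1.60 on the log2 scale (SE 0.38, edgeR adjusted p = 0.00226). In treated cells the level did not pass the test between the days (log2 fold change 0.15, SE 0.15, edgeR adjusted p = 0.412), whereas in untreated cells it rose by 1.75 (SE 0.35, edgeR adjusted p = 0.000548).

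Mt1 and Mt2 encode metallothioneins, small proteins that bind zinc and copper, and their genes lie side by side on the plus strand of chromosome 8. Mt1 (ENSMUSG00000031765, chr8:94179082-94180327) was at 171, 180.4 and 202 CPM in MEFD0, at 55.5, 52.7 and 81.4 CPM in MEFD3min and at 254, 255 and 327 CPM in MEFD3plu. Untreated cells of day 5 were at 77.6, 179.7 and 124 CPM and treated ones at 137, 170.2 and 141 CPM. The groups were apart at day 3, and at day 5 the untreated samples spread over a range that held all 3 treated ones. The difference at day 3 was 4.41-fold (log2 fold change 2.14, SE 0.23, edgeR adjusted p = 4.78e-07). At day 5 the log2 fold change was 0.23 (SE 0.22, edgeR adjusted p = 0.407). That value rested on the untreated samples, since without MEFD5min replicate 3 it was 0.56 and passed the test (edgeR adjusted p = 0.0329), and without replicate 1 it was -0.03. The effects differed between the days by 1.91 on the log2 scale (SE 0.32, edgeR adjusted p = 0.000103).

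Mt2 (ENSMUSG00000031762, chr8:94172664-94173568) was at 48.5, 49.2 and 54.2 CPM in MEFD0, at 23.0, 19.3 and 31.7 CPM in MEFD3min and at 163, 155 and 209 CPM in MEFD3plu. At day 5 it was at 23.1, 51.6 and 34.0 CPM in untreated and at 85.3, 108 and 97.1 CPM in treated cells. Treated samples were above the untreated ones on both days. The difference was 7.13-fold at day 3 (log2 fold change 2.83, SE 0.23, edgeR adjusted p = 1.46e-08) and 2.68-fold at day 5 (log2 fold change 1.42, SE 0.22, edgeR adjusted p = 4.96e-05). The effect was larger at day 3 by 1.41 (SE 0.31, edgeR adjusted p = 0.00123). In GENCODE M21 an antisense gene, Gm45774, covers 73.5% of the exon bases of Mt2, and whether counting used strand was not settled by the sources, so reads of the 2 genes cannot be told apart. Gm45774 itself was not analysed here.

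Per kilobase of annotated exon (1246 bases for Mt1, 588 for Mt2), the mean Mt1 level was above that of Mt2 in MEFD0 (148 against 86.1 CPM per kb), MEFD3min (50.7 against 41.9) and MEFD5min (102 against 61.6). In treated cells the order was the other way, with 224 against 298 CPM per kb in MEFD3plu and 120 against 164 in MEFD5plu. These are levels given as a description, and the order depends on the annotated exon lengths. The 1246 bases of Mt1 are 1 exon block over the whole gene span, so any intron is counted in them, whereas Mt2 has 3 blocks. Reads of the antisense gene Gm45774 may also be in the Mt2 level. Which of the 2 genes is the higher is therefore not settled in any group.

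Zbtb16 (ENSMUSG00000066687, chr9:48654297-48836222, minus strand) encodes PLZF, a zinc finger repressor of transcription. It had 0 counts in all 9 samples that were not treated. MEFD3plu held 499, 465 and 454 counts (17, 14.6 and 12.8 CPM) and MEFD5plu 112, 84 and 97 counts (3.34, 2.71 and 2.92 CPM). Only treated cells had reads, and every sample of day 5 was below every sample of day 3. Against a floor of 3 counts per library, the mean level was at least 159-fold higher in treated cells at day 3 (edgeR adjusted p = 1.19e-09) and at least 31.8-fold higher at day 5 (edgeR adjusted p = 9.68e-08). From day 3 to day 5 it fell by 2.30 on the log2 scale (SE 0.19, edgeR adjusted p = 1.08e-06). A difference in treatment effect between the days could not be estimated with both untreated groups at 0.

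**Figure D2:**
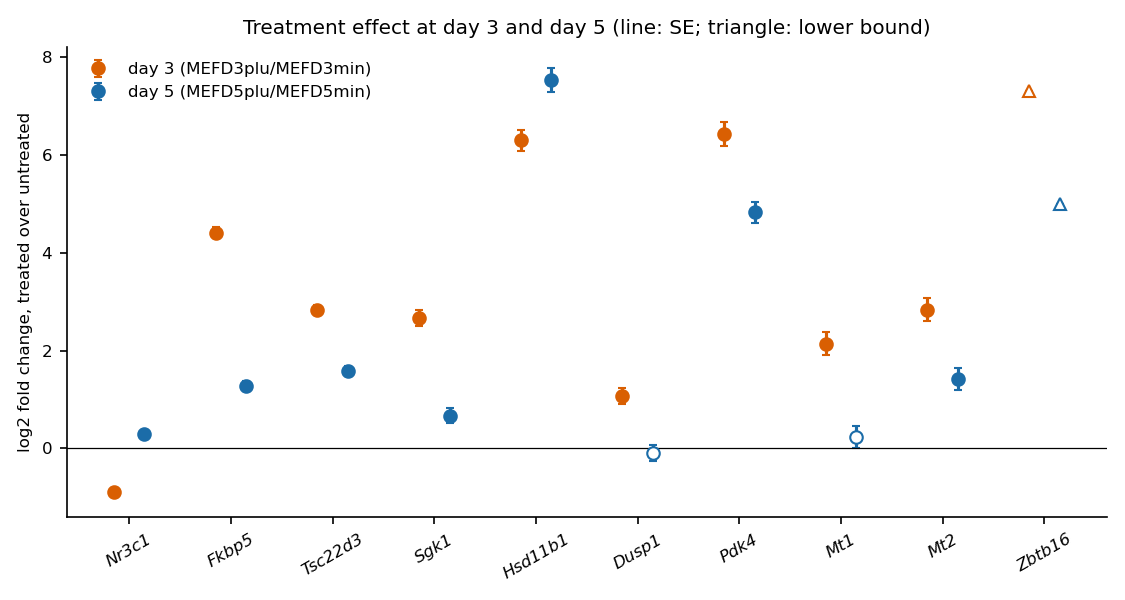
Log2 fold change of treated over untreated cells at day 3 (orange) and day 5 (blue) for each gene, with the SE as a line, filled circles for an adjusted p under 0.05 and open circles above it. Triangles give the lower bounds of Zbtb16, whose untreated groups had 0 counts. Fkbp5 shows the widest gap between the days, Hsd11b1 is the only target higher at day 5, and Nr3c1 lies below 0 at day 3.

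The treatment effect differed between the days in 9 members. It was larger (more positive) at day 3 in 7 of them, a call made for 22.6% of all genes, and larger at day 5 in Nr3c1 and Hsd11b1, a call made for 25.8%. With total counts alone the share of all calls that were larger at day 3 was 59.5% instead of 46.7%, and the 9 member calls kept their directions. In treated cells, 7 members were lower in MEFD5plu than in MEFD3plu (29.2% of all genes) and Nr3c1 was higher (33.8% of all genes), while Hsd11b1 and Pdk4 did not pass. The levels of Mt1, Mt2, Sgk1 and Dusp1 in MEFD5plu were 53.6%, 55.1%, 56.1% and 62.4% of those in MEFD3plu.

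Culture without the agents also moved the members. In MEFD3min, 4 members were lower than in MEFD0 (28.6% of all genes) and 2 were higher (31.4%). Fkbp5 fell by 1.08 on the log2 scale (SE 0.10, edgeR adjusted p = 8.63e-08), Sgk1 by 2.35, Mt1 by 1.55 (SE 0.23, edgeR adjusted p = 1.54e-05) and Mt2 by 1.04 (SE 0.22, edgeR adjusted p = 0.000655). Nr3c1 rose by 0.44 (SE 0.08, edgeR adjusted p = 8.65e-05) and Hsd11b1 rose from its 2 counts. The other 4 members did not pass in the main fit, where the counts of members in each direction were near the shares of all genes. With total counts alone Tsc22d3 (-0.28, edgeR adjusted p = 0.0259) and Dusp1 (-0.44, edgeR adjusted p = 0.0239) were also lower. The median gene then moved by -0.12, and 43.9% of all calls were higher, against 52.3%. Tsc22d3 also passed without MEFD0 replicate 3, and Dusp1 without MEFD0 replicate 1 or MEFD3min replicate 4.

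From MEFD3min to MEFD5min, 5 members rose (Fkbp5, Sgk1, Dusp1, Pdk4 and Mt1, 21.3% of all genes) and Nr3c1 and Hsd11b1 fell (21.5%). Mt2 (0.55, SE 0.22, edgeR adjusted p = 0.0567) did not pass, but did with DESeq2 (0.55, adjusted p = 0.0386), with the replicate block (0.53, edgeR adjusted p = 0.0290), with no filter (0.51, edgeR adjusted p = 2.44e-05) and with total counts alone (0.67, edgeR adjusted p = 0.0212). With total counts alone the median gene moved by 0.10 and 62.7% of all calls were higher, against 49.7%. Fkbp5 rose by 0.93 (SE 0.10, edgeR adjusted p = 1.36e-06), Sgk1 by 1.17 (SE 0.16, edgeR adjusted p = 1.29e-05) and Mt1 by 1.01 (SE 0.23, edgeR adjusted p = 0.00159), and Nr3c1 fell by 0.45 (SE 0.08, edgeR adjusted p = 0.000143). The rise of Dusp1 was 0.49 (SE 0.17, edgeR adjusted p = 0.0239) and did not pass without MEFD3min replicate 1 (0.34, edgeR adjusted p = 0.129), MEFD5min replicate 1 (0.46, edgeR adjusted p = 0.0710) or MEFD5min replicate 3 (0.48, edgeR adjusted p = 0.0552). In MEFD5min against MEFD0, Hsd11b1 and Pdk4 were higher (24.5% of all genes) and Sgk1 and Tsc22d3 lower (21.9%). For this pair of groups the log2 fold changes of Nr3c1 and Fkbp5 were -0.01 (SE 0.08, edgeR adjusted p = 0.947) and -0.15 (SE 0.10, edgeR adjusted p = 0.253).

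Measured from MEFD0 instead of the untreated culture of the same day, 8 members were higher in MEFD3plu (33.9% of all genes) and Nr3c1 was lower (29.7%). Sgk1 did not pass in the main fit, but did under the other settings given above for it. This comparison was added after the untreated cultures were seen to differ from MEFD0. The log2 fold change of Fkbp5 was 3.33 (SE 0.11, edgeR adjusted p = 5.16e-14), that of Tsc22d3 2.67 (SE 0.10, edgeR adjusted p = 4.73e-13), that of Mt2 1.79 (SE 0.22, edgeR adjusted p = 1.69e-06) and that of Dusp1 0.75 (SE 0.16, edgeR adjusted p = 0.000643). The increase of Mt1 was 0.59 (SE 0.22, edgeR adjusted p = 0.0267). It did not pass without MEFD0 replicate 1 (0.54, edgeR adjusted p = 0.0844), MEFD0 replicate 3 (0.58, edgeR adjusted p = 0.0670) or MEFD3plu replicate 4 (0.46, edgeR adjusted p = 0.108), nor with total counts alone (0.49, edgeR adjusted p = 0.0586). In MEFD5plu, 7 members were above MEFD0 (35.2% of all genes) and Sgk1 was below it (29.8%), while Dusp1 and Mt1 did not pass. With total counts alone 43.7% of all calls in MEFD5plu against MEFD0 were higher, against 54.2%, and the median gene moved by -0.18. These comparisons share their controls with the others, so the values stand side by side and are not independent.

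Of 24 other genes known to be raised by glucocorticoids in various cells, 23 were higher in treated cells at day 3 (28.0% of all genes). The median log2 fold change was 2.29 against -0.00057 for all genes tested. The exception was Irs2, at 0.03 (SE 0.19, edgeR adjusted p = 0.903). At day 5, 16 were higher (26.3% of all genes) and 2 lower (24.2%), with a median of 1.11 against 0.01. This list, like those below, was chosen with earlier results of these data known, so the counts and medians are a description. Lcn2, which encodes an iron-sequestering lipocalin, was at 638 ± 71.4 CPM in MEFD3plu and 311 ± 16.1 CPM in MEFD5plu, with at most 9 counts in any other sample. Saa3, an acute-phase protein, went from 154 ± 25.1 CPM in MEFD3plu to 21.9 ± 2.45 CPM in MEFD5plu. Fam107a, a stress-induced actin regulator, went from 40.3 ± 1.59 CPM to 0.73 ± 0.26 CPM, with 21, 32 and 18 counts in MEFD5plu. It was still above MEFD5min, which held 5 counts in all (log2 fold change 3.75, SE 0.46, edgeR adjusted p = 2.92e-06).

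Klf15, a transcription factor of amino acid and lipid metabolism, was at 13.9 ± 1.21 CPM in MEFD3plu and 5.35 ± 0.42 CPM in MEFD5plu, and the sulfotransferase gene Sult1a1 at 19.8 ± 3.40 and 30.5 ± 0.95 CPM. The genes that were lower at day 5, Arrdc3 (log2 fold change -0.70, SE 0.09, edgeR adjusted p = 4.35e-06) and Rhob (-0.26, SE 0.10, edgeR adjusted p = 0.0431), were named after their values were seen. Both were higher at day 3, by 0.61 and 0.34.

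**Figure D3:**
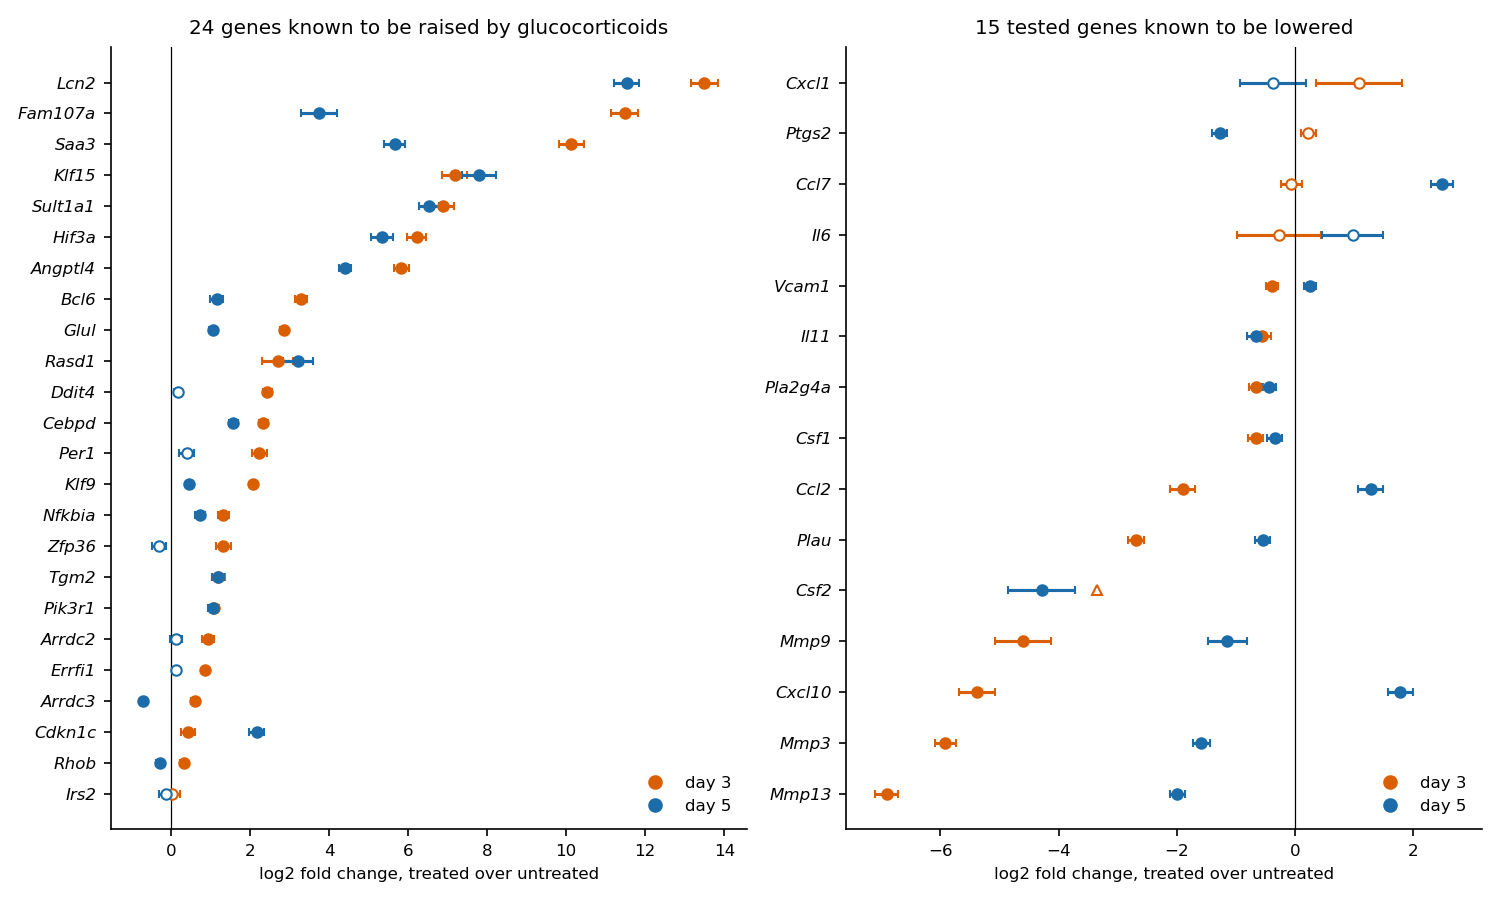
Log2 fold change of treated over untreated cells at day 3 (orange) and day 5 (blue) for 24 genes known to be raised (left) and the 15 tested genes known to be lowered (right) by glucocorticoids, ordered by the day 3 value. Lines are SE, filled circles have an adjusted p under 0.05, and the triangle is the bound of Csf2, at 0 counts in MEFD3plu. On the left 23 genes are called higher at day 3 and 16 at day 5. On the right Ccl2, Ccl7, Cxcl10 and Vcam1 are called higher at day 5, and Il6 lies above 0 (0.98) without a call.

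Of 20 inflammatory and matrix-degrading genes known to be lowered by glucocorticoids, 15 could be tested. At day 3, 11 were lower in treated cells (28.0% of all genes) and none was higher (median log2 fold change -0.66). At day 5, 9 were lower (24.2%) and 4 higher (26.3%, median -0.44). In MEFD3min, 11 of the 15 were higher than in MEFD0 (31.4%) and 3 lower (28.6%, median 2.82). The day 3 decreases are thus relative to a control in which most of the list had risen. Against MEFD0, 6 were higher in MEFD3plu (33.9%) and 5 lower (29.7%, median 0). Mmp13, a collagenase, was at 26.6 ± 2.96 CPM in MEFD3min and 0.21 ± 0.042 CPM in MEFD3plu (log2 fold change -6.91, SE 0.20, edgeR adjusted p = 2.39e-14). Mmp3, stromelysin, was at 763 ± 139 and 12.6 ± 2.39 CPM (log2 fold change -5.92, SE 0.18, edgeR adjusted p = 5.24e-14). At day 5 the differences of both had narrowed, to -1.99 (SE 0.12, edgeR adjusted p = 6.71e-10) and -1.58 (SE 0.14, edgeR adjusted p = 1.31e-07). Csf2, the gene of the cytokine GM-CSF, had 27, 22 and 42 counts in MEFD3min and 0 in each MEFD3plu sample, at least 10.2-fold lower against a floor of 3 counts per library. At day 5 it had 96, 28 and 110 counts in MEFD5min and 2, 3 and 6 in MEFD5plu (log2 fold change -4.29, SE 0.58, edgeR adjusted p = 3.90e-05), the largest decrease of the list on that day.

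The 4 genes higher at day 5 were the chemokine genes Ccl2, Ccl7 and Cxcl10 and the adhesion molecule Vcam1. Ccl7 came under the naming rule, and the other 3 were named after their values were seen. Ccl7 was at 33.2 ± 9.53 CPM in MEFD5min and 187 ± 12.8 CPM in MEFD5plu (log2 fold change 2.49, SE 0.18, edgeR adjusted p = 9.95e-09), whereas at day 3 its log2 fold change was -0.06 (SE 0.18, edgeR adjusted p = 0.804). Cxcl10 went from a log2 fold change of -5.38 at day 3 (SE 0.30, edgeR adjusted p = 9.38e-11) to 1.78 at day 5 (SE 0.21, edgeR adjusted p = 3.02e-06). Ccl2 went from -1.90 (SE 0.21, edgeR adjusted p = 7.84e-07) to 1.28 (SE 0.21, edgeR adjusted p = 7.49e-05). The difference of Vcam1 at day 5 was 0.26 (SE 0.10, edgeR adjusted p = 0.0479), and with total counts alone or DESeq2 size factors 3 of the list were called higher instead of 4. The 4 of 15 called higher are close to the 26.3% of all genes called higher at day 5.

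Of 23 genes of the receptor's chaperones, cofactors and steroid metabolism, 9 were higher and 3 lower at day 3 (median log2 fold change 0.23). At day 5, 3 were higher and 12 lower (median -0.31). Of all genes, 28.0% were called higher and 28.0% lower at day 3, and 26.3% and 24.2% at day 5. With total counts alone, 17 were lower at day 5, but the median of all genes then moved by -0.16 on the log2 scale. A smaller share of all calls was then higher than with TMM scaling, as given above. The 17 therefore cannot be set against the 24.2% of the main fit, and the rise from 12 is not particular to this list. H6pd, which supplies NADPH to the Hsd11b1 enzyme, was at 105 ± 17.3 CPM in MEFD3min and 296 ± 12.9 CPM in MEFD3plu (log2 fold change 1.5, SE 0.12, edgeR adjusted p = 8.60e-09). At day 5 it was at 77.3 ± 6.12 and 120.0 ± 15.1 CPM (log2 fold change 0.64, SE 0.12, edgeR adjusted p = 0.000243). The coactivator gene Ncoa1 rose by 1.23 at day 3 (SE 0.13, edgeR adjusted p = 3.84e-07) and by 0.55 at day 5 (SE 0.13, edgeR adjusted p = 0.00223). Hsd11b2, whose enzyme inactivates glucocorticoid, stayed at or below 2.67 ± 0.47 CPM in every group, so its log2 fold changes of 1.84 at day 3 (SE 0.37, edgeR adjusted p = 0.000386) and 1.48 at day 5 (SE 0.44, edgeR adjusted p = 0.00873) are those of a low level. At day 5 the chromatin remodeller Smarca4 fell by 0.91 (SE 0.15, edgeR adjusted p = 7.57e-05) and the coactivator Ncoa3 by 0.84 (SE 0.15, edgeR adjusted p = 0.000150).

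Among 17 tested genes of the members' families, 9 were higher (28.0% of all genes) and 5 lower (28.0%) at day 3. At day 5, 8 were higher (26.3%) and 6 lower (24.2%). The medians were 0.36 and -0.04. Sgk3 rose on both days, from 1.63 ± 0.33 to 12.6 ± 0.38 CPM at day 3 (log2 fold change 2.94, SE 0.25, edgeR adjusted p = 2.94e-08) and from 1.66 ± 0.87 to 11.6 ± 0.53 CPM at day 5 (log2 fold change 2.76, SE 0.25, edgeR adjusted p = 1.37e-07). Sgk2 had at most 9 counts in any MEFD3plu sample and 44, 31 and 30 counts in MEFD5plu. Dusp2 was lower in treated cells on both days, by -2.92 (SE 0.32, edgeR adjusted p = 6.68e-07) and -1.87 (SE 0.34, edgeR adjusted p = 0.000195), in contrast to Dusp1 at day 3. Other Dusp genes of the list were named after their values were seen. At day 3 Dusp4 was higher (log2 fold change 2.46), as Dusp1 was, and Dusp5 lower (-0.29), while Dusp6 and Dusp10 were not called. Whether these genes differed from the members was not tested.

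Metallothioneins answer zinc as well as glucocorticoid, through the zinc sensor Mtf1, so 7 tested metal-handling genes were followed. At day 3, 4 were higher (28.0% of all genes) and 2 lower (28.0%), and at day 5, 2 were higher (26.3%) and 4 lower (24.2%). The medians were 0.66 and -0.49. Gclc, for glutathione synthesis, rose by 2.66 at day 3 (SE 0.13, edgeR adjusted p = 1.39e-11) and fell by 0.59 at day 5 (SE 0.12, edgeR adjusted p = 0.000657). Hmox1, heme oxygenase, rose by 1.95 (SE 0.11, edgeR adjusted p = 1.46e-10) and by 0.53 (SE 0.11, edgeR adjusted p = 0.000606). The zinc exporter Slc30a1 rose by 0.72 (SE 0.12, edgeR adjusted p = 5.14e-05) and by 0.61 (SE 0.12, edgeR adjusted p = 0.000572), and the zinc importer Slc39a10 fell by 1.24 (SE 0.08, edgeR adjusted p = 9.84e-10) and by 0.49 (SE 0.08, edgeR adjusted p = 8.52e-05). Slc30a1 and Slc39a10 thus moved in opposite directions on both days. Other genes of the list were named after their values were seen. Slc39a8 fell by 0.89 and by 0.51, while Slc39a14 was at 0.04 at day 3 (not called) and -0.51 at day 5. Mtf1 itself was at 0.66 at day 3 and -0.002 at day 5 (not called).

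The genes most like each member across the 15 samples were found by Pearson's r of log2 CPM, which the group means dominate, since samples of a group share treatment and day. Zbtb16 was most like Acox2 (r = 0.997), Pcx (0.996) and Gpat3 (0.996), and Hsd11b1 most like Aldh6a1 (0.994), Acadvl (0.993) and Arxes1 (0.992). Fkbp5 was most like Slc16a1 (0.989), Fzd4 (0.988) and Glul (0.986), and Glul is on the list of other glucocorticoid-raised genes. Tsc22d3 was most like Tob1 (0.993), Fitm2 (0.991) and Fga (0.988), and Pdk4 most like Gzf1 (0.984), C9orf72 (0.983) and Dbt (0.983). Nr3c1 was most like Asah1 (0.972), Scaper (0.969) and Dapp1 (0.966).

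Sgk1 was most like Ciapin1 (0.975), Hspa9 (0.971) and Ncbp1 (0.970), Mt1 most like Ndufaf4 (0.975), Ube2q2 (0.972) and Hspd1 (0.962), and Mt2 most like Sod2 (0.981), Jagn1 (0.978) and Mrpl49 (0.975). Dusp1 had the lowest values, with Gm10382 (0.905), Frat2 (0.901) and Nfil3 (0.899). No 2 members shared a gene among these.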

How the data were processed

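RNA-Seq was done on 15 MEF samples in 5 groups of 3. The authors deposited whole-number read counts per Ensembl gene, 1 file per sample; per the labels and the submitters' processing notes the counts were made with TopHat2 2.1.0 and HTSeq on mm10 (GRCm38). The labels and the methods name different TruSeq kits, so whether the counting used strand is not settled. Groups came from sample titles.

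Counts were fitted with edgeR 4.0.16 (R 4.3.3) over all 15 samples, with filterByExpr, TMM factors, 1 mean per group and quasi-likelihood tests, and p-values were adjusted by Benjamini-Hochberg over 15997 genes. Totals of 24030558 to 37281126 counts set the precision, and genes near 0 carry counting intervals (95%, exact). The script was tested on simulated counts. Members and lists were chosen with earlier results of these data known. By rule the text names every member, the 3 genes per list with the largest called change on each day, and the 3 genes most like each member; others are said to be chosen later. MEFD3plu against MEFD0 was added after the data were seen. Alternatives were DESeq2 1.42.0, other scalings, filters and thresholds, fewer samples and a replicate block. Deviations of same-numbered MEFD3min and MEFD3plu samples correlated (r = 0.143, 0.228 and 0.360), as a hint of pairing from the data; no other pair of groups passed 0.1 for all numbers. Gene positions and names are from GENCODE M21 (46091 of 46603 identifiers matched), promoter windows from RefSeq GRCm38.p6.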

Additional observations from a re-analysis of the deposited data

Results flagged for a closer look

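The effect of treatment differed between day 3 and day 5, by edgeR's test of the difference itself, in 9 members. The differences (day 3 minus day 5, log2 scale) were -1.18 for Nr3c1, 3.13 for Fkbp5, 1.24 for Tsc22d3, 2.0 for Sgk1, -1.23 for Hsd11b1, 1.17 for Dusp1, 1.60 for Pdk4, 1.91 for Mt1 and 1.41 for Mt2. For Hsd11b1 and Pdk4 the untreated cells moved while the treated cells gave no call between the days.

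The same test was passed by 11 of the genes named from the other lists. Of all genes, 22.6% were called larger at day 3 and 25.8% larger at day 5. These genes were named for a large called change on 1 of the days, which favours a difference between the days. The count is therefore only a description. The differences were 7.74 for Fam107a and 4.47 for Saa3 among the genes known to be raised, and -4.92 for Mmp13, -4.34 for Mmp3 and -2.55 for Ccl7 among those known to be lowered. They were 0.86 for H6pd, 0.68 for Ncoa1 and 1.24 for Smarca4 among the receptor's partners, and 3.25 for Gclc, 1.42 for Hmox1 and -0.75 for Slc39a10 among the metal-handling genes. The value for Fam107a rests on 1 count in all of MEFD3min.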

How the results depend on the processing

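Of 1350 values recomputed with 1 sample left out, 1320 kept their direction and side of the threshold, 15 newly passed, 7 no longer passed and 8 changed sign. Of 598 values under other settings these numbers were 575, 17, 3 and 3. Many of the 1350 values leave out a sample of neither group compared, which can move a fold change only little. Comparisons of Zbtb16 between groups at 0 counts are among those kept. The share kept is therefore not a measure of robustness. Every sign change was in a value that had not passed the test. For Nr3c1 in MEFD5min/MEFD0 the log2 fold change was 0.012 with only the samples compared, 0.020 with at least 10 counts in every sample, and -0.061 to 0.023 with 1 sample left out. For Dusp1 in MEFD5plu/MEFD0 it was -0.11 with total counts alone and -0.045 to 0.29 with 1 sample left out, for Hsd11b1 in MEFD5plu/MEFD3plu -0.19 to 0.015, and for Mt1 in MEFD5plu/MEFD5min -0.026 to 0.56. With at least 10 counts in every sample, Hsd11b1, Pdk4 and Zbtb16 are not tested, and the members called were 5 in MEFD5plu/MEFD5min, 2 in MEFD5min/MEFD0 and 5 in MEFD5plu/MEFD0. With a 2-fold minimum they were 3 in MEFD5plu/MEFD3plu, 4 in MEFD5min/MEFD3min and 5 in MEFD5plu/MEFD0. The replicate block left 10 members called at day 3 and 8 at day 5. The shares of all genes called under these settings are not given here, so these counts cannot be set against the shares of the main fit. Under the replicate block Sgk1 in MEFD3plu/MEFD0 (0.31, edgeR adjusted p = 0.0237), Mt1 in MEFD5min/MEFD0 (-0.57, edgeR adjusted p = 0.0137), Mt2 in MEFD5min/MEFD3min (0.53, edgeR adjusted p = 0.0290) and Mt2 in MEFD5min/MEFD0 (-0.51, edgeR adjusted p = 0.0296) passed the test, and it changed no other member's call. Depth limits Hsd11b1, Pdk4 and Zbtb16 in untreated cells, where counts were near 0.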
